A study of Homo sapiens with 12 samples.

Results

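BMP response genes were followed in 2 human ovarian cancer cell lines exposed to ascites, a fluid that builds up in the peritoneal cavity of patients with this cancer. The set holds 10 listed genes (ID1, ID2, ID3, ID4, MSX1, MSX2, SMAD6, SMAD9, BAMBI and BMP4) and was found by matching Ensembl identifiers to gene symbols. All 10 were among the 19251 genes listed in the files and among the 17616 that passed the filter on low values. RNA sequencing gave 12 libraries in 4 groups of 3. CAOV3 carries the label epithelial high grade serous, TOV21G comes from a clear cell tumour by its label, and the genotype of each is given as wild type. Each line was left untreated (control) or kept for 16 h with ascites, added as 150 µL to 1.5 mL of medium (10%), and all groups shared medium with 10% serum and a start of 250000 cells. The labels name no vehicle for the control wells, no donor of the ascites and no separate origin for the replicates, so p-values measure the spread between these samples, which may be technical. Values are the authors' normalised read counts, a read count divided by a scaling factor for the library.

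Bone morphogenetic proteins (BMPs) bind receptor kinases at the cell surface, which phosphorylate SMAD1, SMAD5 and SMAD9. These join SMAD4, enter the nucleus and switch on genes, of which the ID genes are the best known early targets. ID proteins hold basic helix-loop-helix E proteins off DNA, MSX1 and MSX2 are homeobox repressors, and SMAD6 and BAMBI feed back on the pathway as inhibitors. In ovarian cancer, BMP signalling and ID proteins have been studied in growth and spread within the peritoneum.

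The 250 bases before the RefSeq start (build GRCh38.p14) are shown for the 3 genes that fell in both lines, ID2, ID3 and MSX2, and for MSX1, the paralog of MSX2 that passed the test in neither. Capitals mark GTCT on either strand (also read as AGAC), the short SMAD-binding element. GENCODE 29 places the starts of ID2, ID3, MSX2, BAMBI, SMAD9 and BMP4 further upstream, and those of ID1 and SMAD6 a few bases upstream. All sequences run 5′ to 3′ on the strand of the gene. The windows are ID2 at chr2:8681806-8682055 (plus strand), ID3 at chr1:23559502-23559751 (minus strand), MSX2 at chr5:174724332-174724581 (plus strand) and MSX1 at chr4:4859415-4859664 (plus strand).
ID2: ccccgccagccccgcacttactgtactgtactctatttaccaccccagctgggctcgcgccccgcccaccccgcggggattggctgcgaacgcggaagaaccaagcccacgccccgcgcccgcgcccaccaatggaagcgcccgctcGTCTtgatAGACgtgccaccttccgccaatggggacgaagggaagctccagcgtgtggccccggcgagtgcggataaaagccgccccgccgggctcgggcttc
ID3: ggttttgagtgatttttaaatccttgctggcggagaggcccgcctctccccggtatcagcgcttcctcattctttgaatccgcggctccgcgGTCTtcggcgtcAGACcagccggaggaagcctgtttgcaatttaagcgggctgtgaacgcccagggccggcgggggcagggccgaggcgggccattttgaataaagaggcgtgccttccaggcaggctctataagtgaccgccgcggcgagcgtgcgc
MSX2: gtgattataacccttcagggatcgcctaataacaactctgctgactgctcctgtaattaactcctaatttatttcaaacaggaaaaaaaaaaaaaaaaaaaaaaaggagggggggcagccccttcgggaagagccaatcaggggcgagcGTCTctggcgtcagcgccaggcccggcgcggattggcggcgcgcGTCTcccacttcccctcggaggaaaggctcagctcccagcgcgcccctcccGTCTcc
MSX1: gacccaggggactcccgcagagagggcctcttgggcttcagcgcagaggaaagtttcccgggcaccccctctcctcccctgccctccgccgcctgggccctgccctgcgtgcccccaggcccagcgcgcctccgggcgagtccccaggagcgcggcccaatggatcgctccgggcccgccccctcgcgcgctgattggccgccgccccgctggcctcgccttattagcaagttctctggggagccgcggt
ID2 and ID3 each held 2 matches, MSX2 held 3 and MSX1 held 0. Other members that passed the test in neither line held matches as well. ID1 held 3, SMAD6 held 2, BAMBI held 4, ID4 and SMAD9 held 1 each, and the 3 BMP4 starts held 2, 0 and 2. Whether the number of matches goes with the response was not tested. A match to GTCT was present in 77.5% of 35116 promoter windows of this length and in 10 of the 12 member windows. Counted by gene, with a match at any start, it was in 80.8% of 27305 symbols and 9 of the 10 members. Its presence sets them little apart. The GC-rich SMAD element GGCGCC, which reads alike on both strands, was in 16.4% of windows and 2 of the 12 member windows. These were BAMBI and 1 of the 3 BMP4 starts, so 2 of the 10 members, beside 19.0% of symbols. Matches of the 2 motifs share no bases within these windows. The bipartite element, GGCGNC followed by GTCT after a spacer of 5 bases, was searched on both strands. It was in 0.256% of windows and in none of the 12 member windows. At so low a share its absence from 12 windows says little, and bases further upstream were not searched. CACGTG, an E-box that reads alike on both strands, was in 6.34% of windows and 2 of the 12 member windows, SMAD9 and 1 of the 3 BMP4 starts. BAMBI held 3 GGCGCC matches and 4 GTCT matches, and is shown with both in capitals, at chr10:28677271-28677520 (plus strand).
BAMBI: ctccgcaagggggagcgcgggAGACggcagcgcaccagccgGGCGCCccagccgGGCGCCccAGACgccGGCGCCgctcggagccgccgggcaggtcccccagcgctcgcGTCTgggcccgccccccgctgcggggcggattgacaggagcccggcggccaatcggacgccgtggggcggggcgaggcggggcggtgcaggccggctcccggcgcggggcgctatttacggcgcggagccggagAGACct

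Library depth lay between 26697609 and 34491304 reads, recovered from the deposited values. In the TOV21G libraries 49.5% of the variance within groups lay along 1 axis, on which control 1 and ascites 2 stood at one end. KCNQ1OT1, a nuclear long noncoding RNA that moved with this axis, ranged from 95.4 to 1511 in TOV21G and from 614 to 813 in CAOV3. The epithelial keratins KRT8 and KRT18 were present in both lines, at means of 66467 and 47679 in CAOV3 controls and 5287 and 5738 in TOV21G controls. Of 8 leukocyte markers 2 were listed, with summed values of 117 to 134 in CAOV3 controls, 101 to 125 with ascites, 8.39 to 13.01 in TOV21G controls and 11.6 to 20.4 with ascites. LYZ was 0 in every TOV21G library. Of 5 mesothelial markers all were listed, with sums of 119 to 159 and 98.2 to 137 in CAOV3 and of 611 to 682 and 601 to 657 in TOV21G, control before ascites. Fibroblast markers (5 of 6 listed) summed to 5558 to 6416 and 5328 to 5478 in CAOV3, mostly LUM, and to 1824 to 2040 and 1770 to 1927 in TOV21G, mostly COL1A1. Of 4 endothelial markers only PECAM1 was listed, at 11.3 or below in every library.

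With ascites, ID2, ID3 and MSX2 fell in both lines, and no member was called higher. The size was modest. In CAOV3 ID2 fell by 19.8%, ID3 fell by 19.6% and MSX2 fell by 13.7%, and in TOV21G ID2 fell by 18.0%, ID3 fell by 21.5% and MSX2 fell by 17.1%. The 3 members called lower in CAOV3 (3 of 10) stand beside 1.1% of all tested genes called lower there, and the 3 of 10 in TOV21G beside 0.267%. In both lines at once 21 genes were called lower, 0.119% of those tested, and these members are 3 of them. The members were chosen with earlier results of these data known, so the shares here and below are a description. A gene was called at a Benjamini-Hochberg adjusted p under 0.05 in limma over all tested genes. No member was called higher, against 0.636% of all tested genes in CAOV3 and 0.142% in TOV21G, and none was higher at an unadjusted p under 0.05 in either line. In edgeR and DESeq2, run on the recovered reads, the number of members called higher was also 0, and BMP4 in CAOV3 (208 ± 17.7 and 243 ± 22.8) was higher at an unadjusted p under 0.05 in edgeR, with TMM scaling, with a pseudocount of 5 and with the line fitted alone.

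Over the 10 members the median log2 fold change was -0.18 in CAOV3 and -0.27 in TOV21G, against -0.00 and -0.02 over all tested genes. Fold changes were negative for 8 of 10 members in CAOV3 and for all 10 in TOV21G, as for 8936 and 9881 of all 17616 tested genes. ID4, with 8 reads in all CAOV3 controls and 4 with ascites, passed the filter through TOV21G alone and says nothing about CAOV3, where 7 of the other 9 members were negative and their median was -0.16. All 3 ascites libraries lay below all 3 controls for 5 members in CAOV3 (ID1, ID2, ID3, MSX2 and SMAD6), where 12.8% of all tested genes did so. In TOV21G this held for 8 members, every one except MSX1 and BMP4, against 6.99% of all tested genes. In both lines it held for 1.44% of tested genes.

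**Figure D1:**
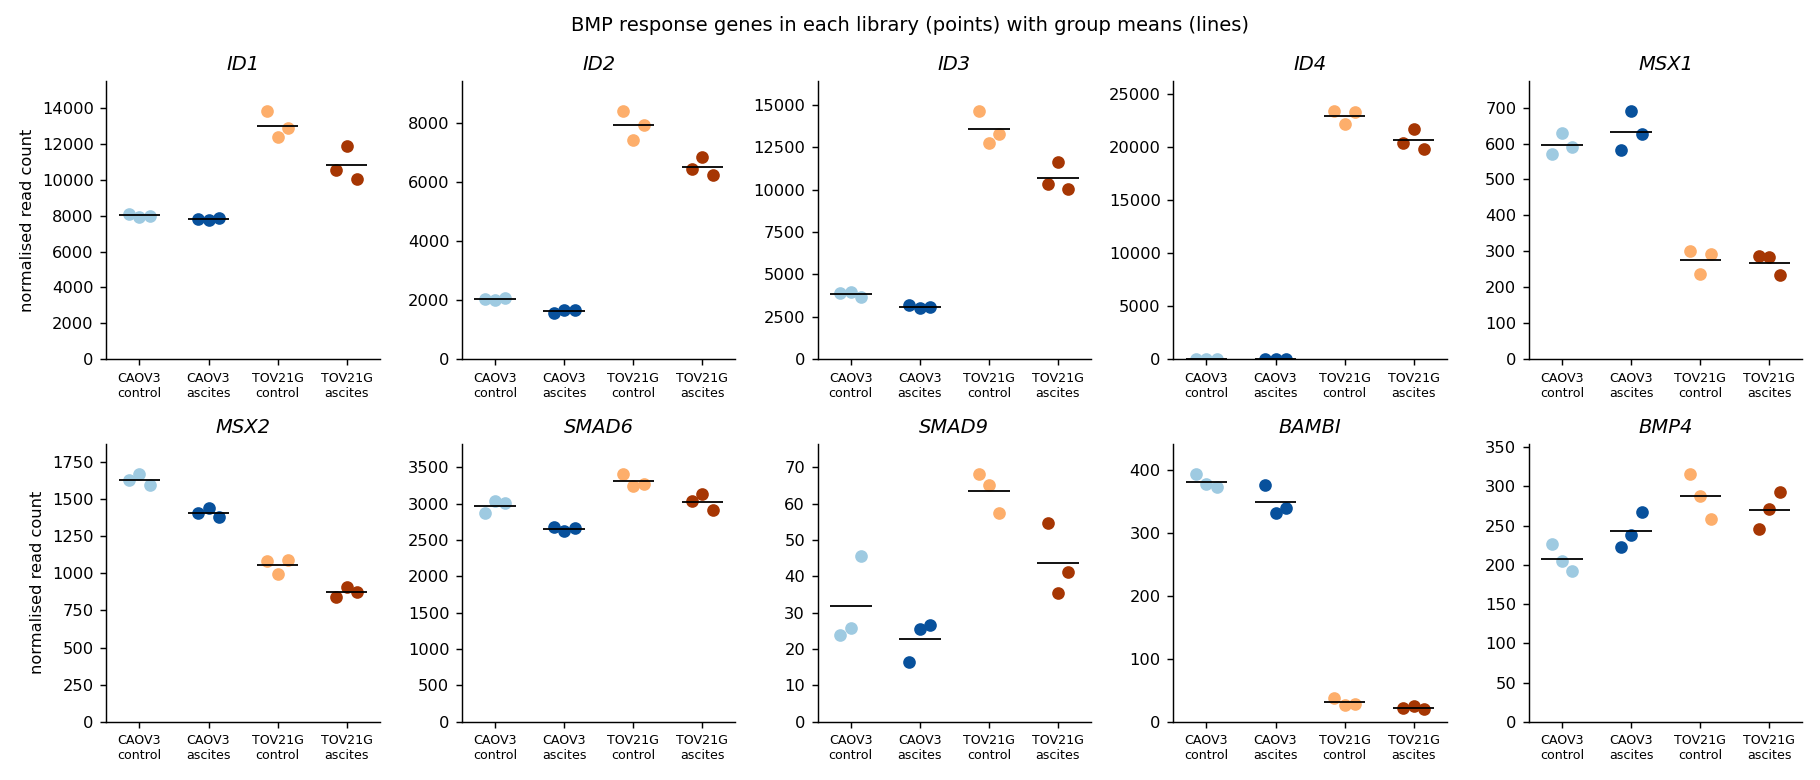
Normalised read count of each BMP response gene in each of the 12 libraries, with 1 point per library and a line at the group mean (n = 3). Light colours are controls and dark colours ascites. In both lines the ascites points of ID2, ID3 and MSX2 lie below all the controls, and ID4 lies at or near 0 in CAOV3.

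ID2, which dimerises with E proteins and blocks them, lies at chr2:8678845-8684453 on GRCh38 in the GENCODE 29 annotation. In CAOV3 it was at 2029, 1984 and 2065 in the controls and at 1561, 1646 and 1668 with ascites. TOV21G had ID2 at 8403, 7426 and 7935 in the controls and at 6422, 6847 and 6214 with ascites. The groups did not overlap in either line, and the gap between the nearest libraries was several times the spread among replicates in CAOV3. Group means in CAOV3 were 2026 ± 41.1 and 1625 ± 56.4 (SD, n = 3), with a change of -0.32 on the log2 scale (SE 0.05, adjusted p = 0.00484). Those in TOV21G were 7921 ± 489 and 6494 ± 323, with a change of -0.29 (SE 0.05, adjusted p = 0.0265). ID2-AS1, on the opposite strand and overlapping ID2, was at 34.8 to 57.4, and since strandedness is not stated reads of the pair cannot be told apart.

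ID3 (chr1:23557918-23559794, minus strand) encodes a protein of the same kind and is often induced together with ID1. In CAOV3 it was at 3911, 3969 and 3688 in the controls and at 3163, 3032 and 3101 with ascites. The TOV21G controls were at 14657, 12774 and 13315 and the ascites libraries at 10326, 11637 and 10050. Again no ascites library reached a control of its line. The log2 fold change was -0.31 in CAOV3 (SE 0.06, adjusted p = 0.018) and -0.35 in TOV21G (SE 0.06, adjusted p = 0.0261).

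ID1 (chr20:31605283-31606515) did not pass the test in either line. Its CAOV3 controls were at 8123, 7957 and 7987 and its ascites libraries at 7818, 7766 and 7862, close together but without overlap. In TOV21G the controls were at 13867, 12377 and 12894 and the ascites libraries at 10571, 11895 and 10067. The TOV21G groups were apart as well, by more in value than in CAOV3 but with a far larger spread among replicates. The SDs of controls and ascites were 756 and 944 in TOV21G and 88.4 and 48.0 in CAOV3. The log2 fold changes were -0.04 in CAOV3 (95% interval -0.16 to 0.09, adjusted p = 0.862) and -0.27 in TOV21G (95% interval -0.39 to -0.14, adjusted p = 0.0813). The test of the difference between the responses gave -0.23 (95% interval -0.41 to -0.06, adjusted p = 0.308 in limma). In TOV21G ID1 was called by edgeR (adjusted p = 0.0133) and by DESeq2 (adjusted p = 0.000392).

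ID4 (chr6:19837386-19840684) was nearly absent from CAOV3. Its CAOV3 libraries held 4, 0 and 4 reads in the controls and 0, 2 and 2 with ascites, of 26697609 to 31046290 reads each. In TOV21G it was among the most abundant members, at 23430, 22193 and 23326 in the controls and 20424, 21694 and 19863 with ascites. Those groups did not overlap. The log2 fold change in TOV21G was -0.15 (SE 0.54, adjusted p = 0.964), with an SE set by the spread of the CAOV3 values near 0, since both lines share 1 estimate. With TOV21G fitted alone the p was 0.0399 (adjusted p = 0.748), and DESeq2 gave an adjusted p of 0.0869. AL022068.1, which overlaps ID4 on the opposite strand, was at 17.4 to 51.4.

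The summed level of the 4 ID genes, per kb of annotated exon, was 9572 ± 109 in CAOV3 controls and 8801 ± 63.5 with ascites. In TOV21G it was 31536 ± 1617 and 26493 ± 1781. No ascites sum reached a control sum of its line. The share of ID1 in the CAOV3 sum was 68.0% ± 0.463 in controls and 72.0% ± 0.0838 with ascites, and the libraries did not overlap. In TOV21G the share of ID1 was 33.5% ± 0.295 and 33.2% ± 0.647, with overlap. ID4 made up 31.1% ± 0.883 of the sum in TOV21G controls, 33.3% ± 0.711 with ascites and 0.0126% ± 0.0110 in CAOV3 controls.

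**Figure D2:**
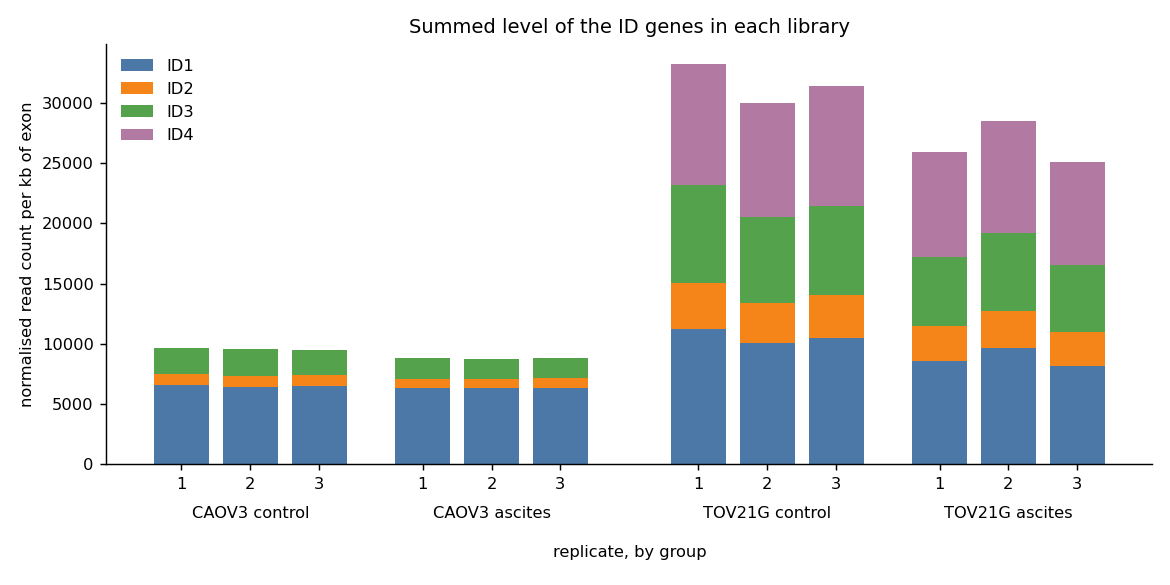
Normalised read count per kb of exon of ID1, ID2, ID3 and ID4, stacked, in each library by group and replicate. The TOV21G sums (25049 to 33210) are about 3 times the CAOV3 sums (8733 to 9686), with ID4 visible only in TOV21G.

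MSX2 and MSX1 encode closely related homeobox proteins. MSX2 (chr5:174724533-174730893) was at 1629, 1673 and 1594 in CAOV3 controls and at 1404, 1443 and 1377 with ascites. TOV21G had MSX2 at 1083, 995 and 1087 in controls and at 840, 911 and 872 with ascites. Both pairs of groups were clear of each other. The log2 fold changes were -0.21 in CAOV3 (SE 0.05, adjusted p = 0.0394) and -0.27 in TOV21G (SE 0.05, adjusted p = 0.0261).

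MSX1 (chr4:4859666-4863936) was at 571, 630 and 590 in CAOV3 controls and at 582, 691 and 627 with ascites. The TOV21G controls were at 300.3, 237 and 293 and the ascites libraries at 287, 284 and 234. Its groups overlapped in both lines. The 95% intervals of its log2 fold change ran from -0.14 to 0.31 in CAOV3 and from -0.27 to 0.18 in TOV21G, and those of MSX2 from -0.32 to -0.11 and from -0.37 to -0.17, so the intervals of the paralogs overlapped in both lines. The ratio of MSX2 to MSX1 values was 2.65 to 2.85 in CAOV3 controls and 2.09 to 2.41 with ascites, without overlap. In TOV21G it was 3.61 to 4.20 and 2.93 to 3.72, with overlap. The difference between the paralogs was not tested.

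The pathway's own inhibitors among the members were SMAD6, which blocks activated receptors and SMAD1, and BAMBI, a receptor decoy without a kinase domain. SMAD6 (chr15:66702228-66782848) was at 2869, 3033 and 3011 in CAOV3 controls and at 2671, 2618 and 2669 with ascites. It was at 3412, 3242 and 3275 in TOV21G controls and at 3031, 3134 and 2911 with ascites. Neither pair of groups overlapped, yet neither passed the test, the log2 changes being -0.16 in CAOV3 (SE 0.04, adjusted p = 0.0587) and -0.13 in TOV21G (SE 0.04, adjusted p = 0.29). In CAOV3 SMAD6 was called by edgeR (adjusted p = 0.02) and by DESeq2 (adjusted p = 0.0193).

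BAMBI (chr10:28677342-28682939) was at 395, 378 and 373 in CAOV3 controls and at 376, 332 and 341 with ascites, which overlap. In TOV21G its values were low, at 37.9, 27.3 and 27.8 in controls and at 22.4, 25.7 and 19.7 with ascites. These TOV21G groups did not overlap. The log2 fold change there was -0.43 (SE 0.15, adjusted p = 0.377).

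SMAD9, a receptor-activated SMAD that is itself a target, and BMP4, the ligand, showed no called change. SMAD9 (chr13:36844831-36920765, minus strand) was at 23.8, 25.8 and 45.5 in CAOV3 controls and 16.4, 25.6 and 26.6 with ascites. In TOV21G it was at 68.3, 65.0 and 57.4 in controls and 54.7, 35.4 and 41.2 with ascites, without overlap. At these low values the 95% interval of the TOV21G log2 fold change ran from -1.13 to 0.03, around -0.55. BMP4 (chr14:53949736-53958761, minus strand) was at 227, 204 and 192 in CAOV3 controls and 223, 238 and 268 with ascites. Its TOV21G controls were at 317, 288 and 258 and its ascites libraries at 245, 271 and 293. Groups overlapped in both lines, and the difference between the responses was -0.32 (95% interval -0.64 to 0.01, adjusted p = 0.433).

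**Figure D3:**
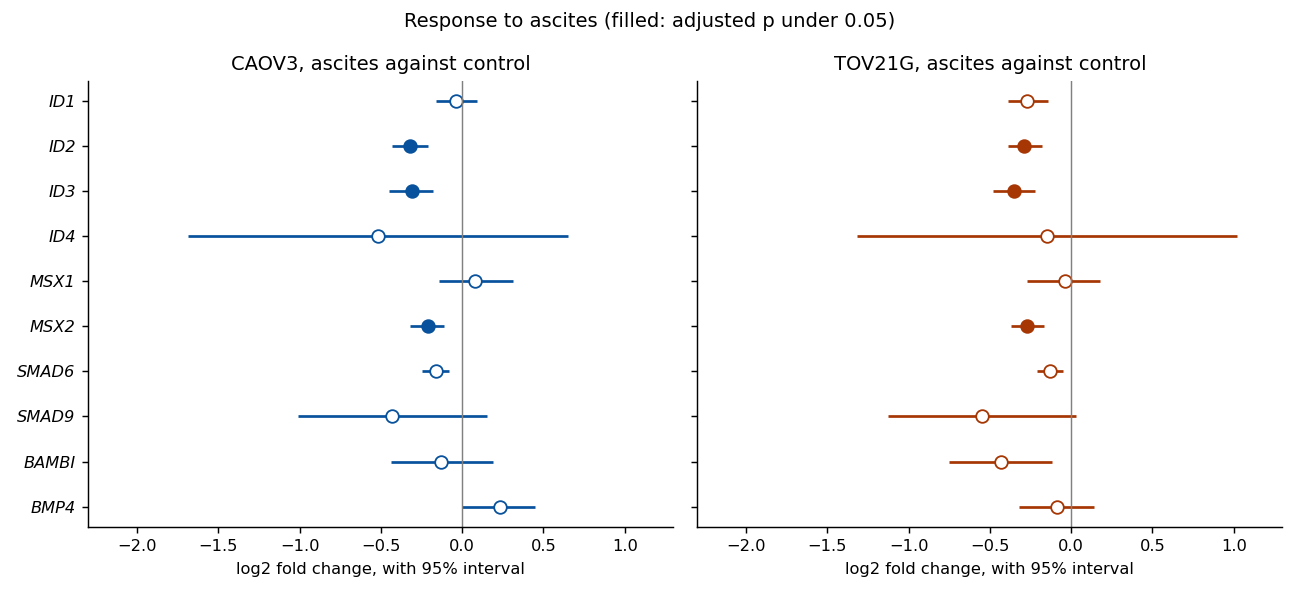
Log2 fold change of each member with ascites against control in CAOV3 (left) and TOV21G (right), with 95% intervals from the limma fit. Filled points passed an adjusted p of 0.05, and these are ID2, ID3 and MSX2 in both panels. The widest intervals belong to ID4, which is at or near 0 reads in CAOV3.

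No member's response was shown to differ between the lines. In the test of the difference (TOV21G minus CAOV3) 0 of 10 members were called by limma, edgeR or DESeq2, and 1, ID1, had an unadjusted p under 0.05 in each. Over all tested genes 0.545% were called in this test. The intervals still allow differences: for ID2 the difference was 0.03 (95% interval -0.12 to 0.19), for ID3 -0.03 (-0.22 to 0.15) and for MSX2 -0.06 (-0.20 to 0.09).

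The calls rested on single libraries to different degrees. ID2 in CAOV3 held with each of the 12 libraries left out in turn, at adjusted p-values from 0.00218 to 0.0317. ID3 in CAOV3 was lost without CAOV3 control 1 or 2 or any 1 of its ascites libraries (adjusted p up to 0.0893). MSX2 in CAOV3 was lost without any 1 of the 6 CAOV3 libraries, and without TOV21G control 3, ascites 1 or ascites 3 (adjusted p up to 0.15). In TOV21G the calls of ID2, ID3 and MSX2 were all lost without TOV21G control 1 or 3, TOV21G ascites 1 or 3, CAOV3 control 1 or CAOV3 ascites 3. ID2 alone of these was called without CAOV3 ascites 1, and MSX2 alone without CAOV3 ascites 2. Adjusted p-values then reached 0.116 for ID2, 0.117 for ID3 and 0.129 for MSX2. With each line fitted alone, 1295 genes were called in CAOV3 and 22 in TOV21G, against 305 and 72 with both lines in 1 fit. Among the genes called with the line alone were ID2, ID3, MSX2 and SMAD6 in CAOV3 and 0 members in TOV21G. The adjusted p in TOV21G was then 0.206 for ID2, 0.191 for ID3 and 0.233 for MSX2. There 7 members had an unadjusted p under 0.05, all lower. The share of all tested genes under that unadjusted threshold is not given here, so the count of 7 is only a description.

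The ID genes also moved with KCNQ1OT1 among TOV21G replicates. Control 1, the lowest in KCNQ1OT1 (95.4), had the highest ID1, ID2, ID3 and ID4 of its group, and control 2, the highest of the controls (656), had the lowest. Among the ascites libraries, ascites 2 (235) had the highest value of all 4 genes and ascites 3 (1511) the lowest. At near-equal KCNQ1OT1, control 3 (234) and ascites 2 (235) had ID2 at 7935 and 6847 and ID3 at 13315 and 11637. Control 2 (656) and ascites 1 (731) had ID2 at 7426 and 6422 and ID3 at 12774 and 10326. The ascites library was the lower of each pair in all 4 ID genes. These are single libraries paired after their values were seen, in the second pair the ascites library was also the higher in KCNQ1OT1, and the pairs carry no test.

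With KCNQ1OT1 added as a covariate for TOV21G, the TOV21G log2 fold changes were -0.21 for ID2 (adjusted p = 0.0203), -0.24 for ID3 (adjusted p = 0.0125) and -0.17 for ID1 (adjusted p = 0.0213). MSX2 was at -0.22 and lost its call (adjusted p = 0.0582). Without the covariate the changes were larger, at -0.29 for ID2, -0.35 for ID3 and -0.27 for ID1 and for MSX2. KCNQ1OT1 was at 95.4, 656 and 234 in TOV21G controls and at 731, 235 and 1511 with ascites. The covariate thus shares part of its variation with treatment, and their parts cannot be fully told apart. With control 1 and ascites 2 left out together, the 4 genes ID1, ID2, ID3 and MSX2 were called in TOV21G, and the difference between lines for ID1 was called as well (-0.25, adjusted p = 0.0304). Both alternatives were chosen after the data had been seen.

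**Figure D4:**
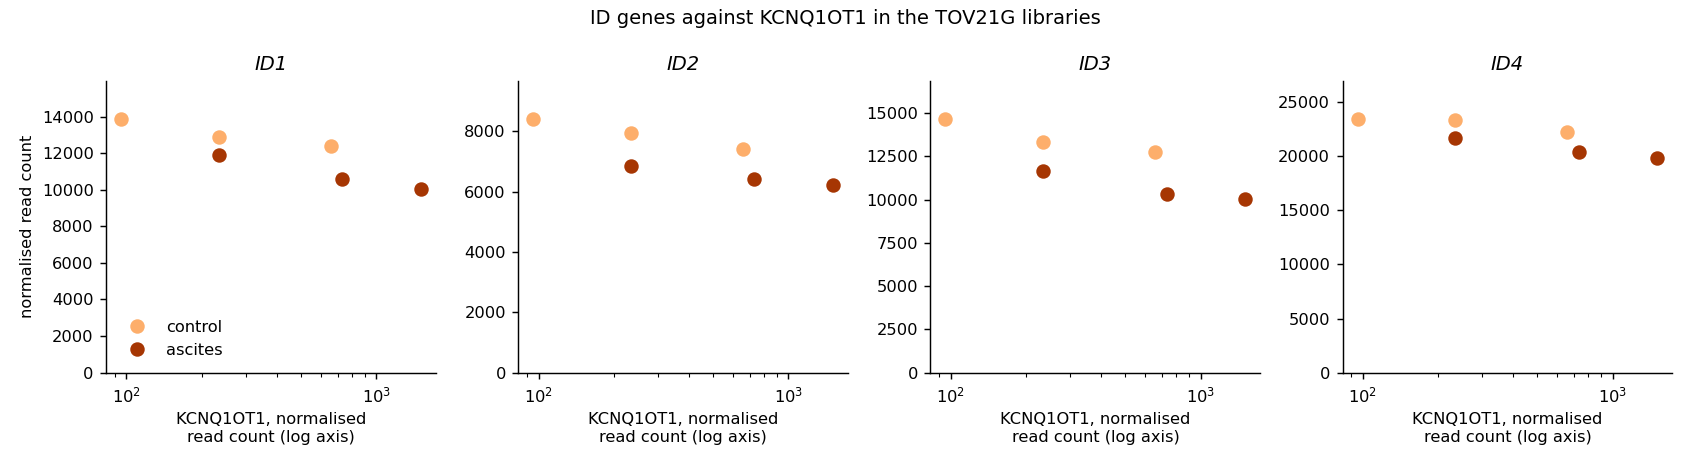
Normalised read count of ID1, ID2, ID3 and ID4 (linear axis from 0) against that of KCNQ1OT1 (log axis) in the 6 TOV21G libraries, with light points for controls and dark points for ascites. Within each group the ID value is lower where KCNQ1OT1 is higher. At KCNQ1OT1 near 235 an ascites library lies under a control library in all 4 panels. This pair was chosen after the values were seen and is the same in every panel, so it carries no test.

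At baseline the lines differed in every member. All 10 were called between TOV21G and CAOV3 controls, where 82.2% of all tested genes were called, so the count says little about these genes and the sizes are given instead. The ID genes were higher in TOV21G, with log2 differences of 0.70 for ID1 (SE 0.06), 1.96 for ID2 (SE 0.05) and 1.81 for ID3 (SE 0.06). ID4 averaged 2.83 ± 2.47 in CAOV3 and 22983 ± 687 in TOV21G controls. Its fitted log2 difference of 12.89 depends on the pseudocount and became 11.58 with a pseudocount of 5. SMAD9 (1.04, SE 0.27), BMP4 (0.47, SE 0.11) and SMAD6 (0.16, SE 0.04) were higher in TOV21G too. The inhibitor BAMBI was far lower there (-3.60, SE 0.15), as were MSX1 (-1.11, SE 0.10) and MSX2 (-0.63, SE 0.05).

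Per kb of exon, ID1 had the highest mean level of the members in both sets of controls, at 6506 in CAOV3 and 10581 in TOV21G. In CAOV3 controls ID3 (2146), ID2 (919), MSX2 (719), SMAD6 (347), MSX1 (282), BAMBI (165), BMP4 (67.4), SMAD9 (5.54) and ID4 (1.21) followed, and no neighbours in this order overlapped. In TOV21G controls the order was ID4 (9805), ID3 (7558), ID2 (3592), MSX2 (465), SMAD6 (387), MSX1 (131), BMP4 (93.4), BAMBI (13.4) and SMAD9 (11.1), and BAMBI and SMAD9 overlapped. With ascites the order in CAOV3 was the same, with SMAD6 and MSX1 now overlapping. In TOV21G with ascites ID4 (8814) and ID1 (8795) overlapped at the top, as did BAMBI and SMAD9 at the bottom.

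The rest of the pathway was read from lists by role. Of 10 other direct BMP targets 9 were tested. GATA2, a zinc finger factor, fell in CAOV3 from 2018 ± 58.6 to 1564 ± 60.2 (a log2 change of -0.37, SE 0.07, adjusted p = 0.0212) and was at 847 ± 72.9 and 657 ± 61.9 in TOV21G (-0.37, SE 0.07, adjusted p = 0.0512, and 0.0102 in edgeR). It was the only one of the 9 called in CAOV3 by limma, while edgeR and DESeq2 each called 2 there, GATA2 and ATOH8 (375, 446 and 387 in controls and 265, 248 and 305 with ascites). In TOV21G 0 were called by limma, edgeR called 1 (GATA2) and DESeq2 called 2 (GATA2 and HES1). There 6 had an unadjusted p under 0.05 in limma, a count without the share of all tested genes beside it. Fold changes were negative for 8 of 9 in CAOV3 (median -0.13) and 7 of 9 in TOV21G (median -0.25), counting DLX5, which was at or near 0 in CAOV3. HES1, a Notch and BMP target, was at 1105 ± 63.2 and 932 ± 54.4 in TOV21G (-0.25, SE 0.06, adjusted p = 0.135). At baseline DLX5, a homeobox target, was at 0.330 ± 0.571 in CAOV3 and 2276 ± 214 in TOV21G, and DLX2 at 3424 ± 38.5 and 24.2 ± 7.06.

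The ligands, receptors and signal carriers showed few calls. Of 12 ligand genes besides BMP4, 6 were listed and 5 tested, and 1, BMP8A, fell in CAOV3 at low values (18.1 ± 3.88 to 6.94 ± 2.86, log2 fold change -1.31, adjusted p = 0.0302). EdgeR and DESeq2 called 0 ligands in either line, and BMP8A has a close copy, BMP8B, so its counts are uncertain. Of 10 tested receptors and co-receptors 1 was called: ENG, the co-receptor endoglin, rose in CAOV3 from 355 ± 9.81 to 439 ± 34.9 (0.30, SE 0.07, adjusted p = 0.0394) and was at 2375 ± 107 and 2251 ± 172 in TOV21G. SMAD1, SMAD5 and SMAD4 had log2 fold changes of -0.06 to 0.11 in CAOV3 and 0.05 to 0.12 in TOV21G, with 0 called by limma, edgeR or DESeq2 and 1 in TOV21G at an unadjusted p under 0.05. The E proteins TCF3, TCF4 and TCF12, the partners that ID proteins bind, lay between -0.07 and 0.01 in CAOV3 and between -0.06 and 0.00 in TOV21G, with 0 called by the same tools and 0 at an unadjusted p under 0.05. Since TCF4 was at 0 in every TOV21G library, only TCF3 and TCF12 bear on that line. Of 8 secreted antagonists 0 were called in either line by limma, though FST and SOSTDC1 (at 0) and BMPER (1 read in all) could not have been in TOV21G. There were 3 at an unadjusted p under 0.05 in CAOV3 and 2 in TOV21G. EdgeR and DESeq2 each called 1 of these in CAOV3, FSTL3, at 703 ± 46.0 in controls and 904 ± 55.3 with ascites.

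Among 6 further intracellular inhibitors, TOB1, which binds SMADs, fell in CAOV3 (1801 ± 58.2 to 1472 ± 54.9, log2 fold change -0.29, SE 0.06, adjusted p = 0.0218). SMAD7, the inhibitory SMAD shared with TGF-beta signalling, fell in TOV21G. Its controls were at 2155, 2080 and 2192 and its ascites libraries at 1684, 1857 and 1661 (-0.31, SE 0.05, adjusted p = 0.0265). In CAOV3 SMAD7 was at 1382 ± 71.3 and 1362 ± 60.5 (-0.02, SE 0.05, adjusted p = 0.94), and the difference between lines was not called (-0.29, adjusted p = 0.172).

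The lines carried different pathway parts at baseline. BMP2, a ligand, was at 638 ± 15.7 in CAOV3 controls and 2.75 ± 2.34 in TOV21G controls. The type I receptor BMPR1B was at 929 ± 55.2 and 4.33 ± 1.00, while ACVRL1, another type I receptor, was at 0.688 ± 0.598 and 160 ± 20.4. BMPR1A (1489 ± 92.9 and 3477 ± 29.7) and BMPR2 (2977 ± 32.9 and 6137 ± 1162) were present in both and higher in TOV21G. The antagonists FST and SOSTDC1 and the E protein TCF4 were at 0 in all TOV21G libraries, and at 90.0 ± 4.37, 30.3 ± 8.15 and 252 ± 21.9 in CAOV3 controls. FSTL1, a secreted follistatin-like protein, was at 1093 ± 14.9 and 7945 ± 384.

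Targets of TGF-beta, which signals through SMAD2 and SMAD3, served for comparison. Of 11 tested, 1 rose and 1 fell in CAOV3 and 1 fell in TOV21G, with medians of -0.02 and -0.11. JUNB rose in CAOV3 from 2304 ± 175 to 3167 ± 96.2 (a log2 change of 0.46, SE 0.07, adjusted p = 0.00318). CCN2 fell there from 4278 ± 157 to 3460 ± 73.6 (-0.31, SE 0.07, adjusted p = 0.0424). PMEPA1, an inhibitor of TGF-beta signalling, fell in TOV21G from 858 ± 30.9 to 553 ± 60.7 (-0.64, SE 0.07, adjusted p = 0.00115) and was at 3336 ± 110 and 3553 ± 206 in CAOV3. EdgeR and DESeq2 called 1 more in TOV21G, TGFBI (5235 ± 309 and 4470 ± 252). In the test of the difference between lines, limma called 2 of these 11 (PMEPA1 and JUNB), edgeR 3 (with TGFBI) and DESeq2 4 (with TGFBI and CCN2). The keratins KRT8 (0.29, adjusted p = 0.0231) and KRT18 (0.33, adjusted p = 0.0102) rose in CAOV3, where ID2, ID3 and MSX2 fell, and the summed values of the 6 epithelial markers, mostly these keratins, were 131735 to 132827 in its controls and 153356 to 162654 with ascites. The others did not pass the limma test in CAOV3: CDH1 was at 425 ± 33.1 and 272 ± 8.43, without overlap, KRT19 had a log2 change of -0.06, EPCAM of 0.17 and PAX8 of 0.20. In TOV21G those sums were 18336 to 19220 and 19705 to 20446, with PAX8 at 7032 ± 259 and 8852 ± 448 (adjusted p = 0.161) and the other 5 markers negative (log2 changes of -0.15 to -0.03). EdgeR and DESeq2 each called 3 of the 6 epithelial markers in CAOV3 and 1 in TOV21G, where limma called 2 and 0. With 1 of the 12 libraries left out in turn, JUNB in CAOV3 and PMEPA1 in TOV21G were called in all 12 fits, KRT18 in 10, GATA2 in 8, SMAD7 and TOB1 in 7, KRT8 in 6, BMP8A and ENG in 5 and CCN2 in 3. Whether the rise of keratins had a part in the fall of the members was not tested.

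**Figure D5:**
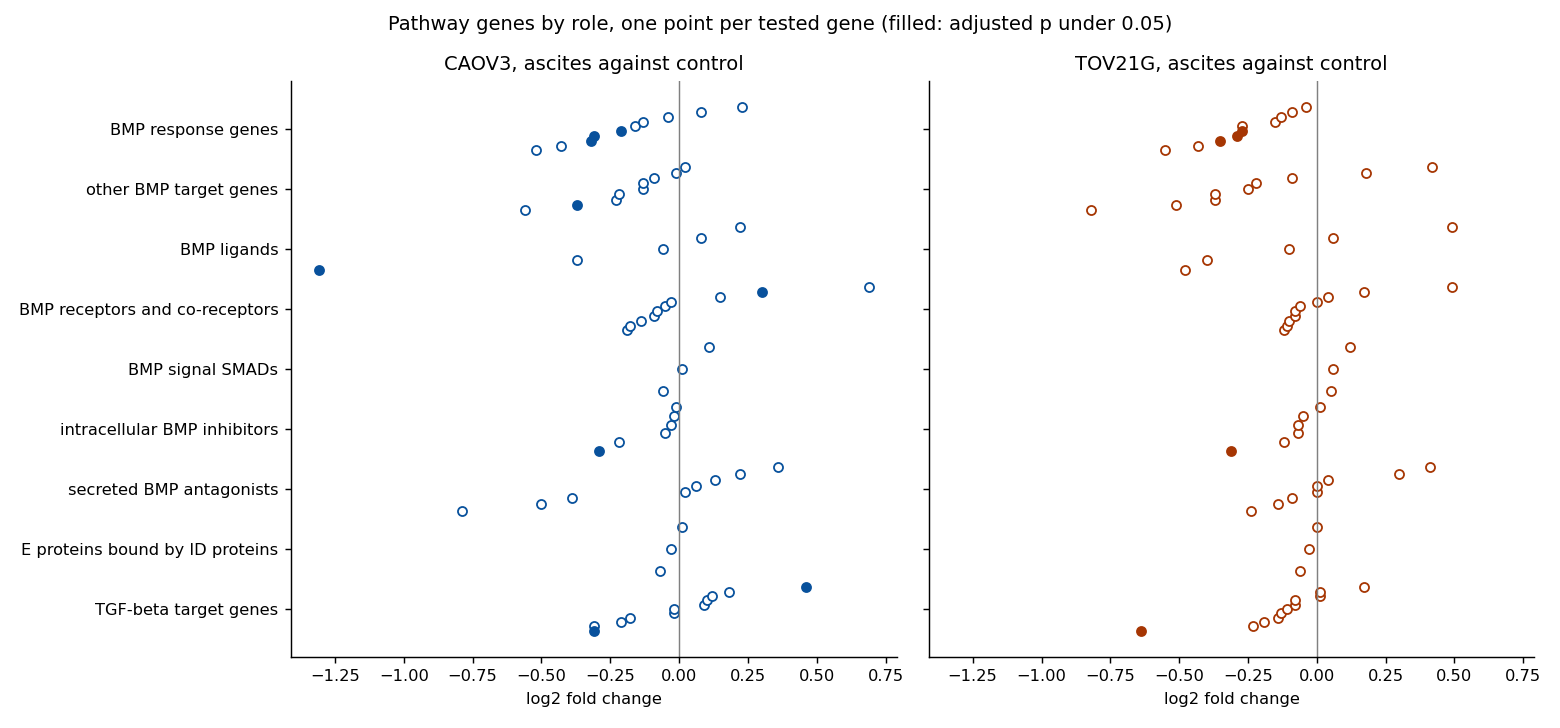
Log2 fold change with ascites for each tested gene of the BMP and TGF-beta lists, by role, in CAOV3 (left) and TOV21G (right). Filled points passed an adjusted p of 0.05. Signal SMADs and E proteins lie within 0.12 of 0 in both lines, where TCF4 and the antagonists FST and SOSTDC1 sit at 0 in TOV21G because every library there was at 0.

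Genes with a profile most like that of ID1, ID2 and ID3 were sought by Pearson's r with the mean of the 3, on log2 values centred within each line, over 12 libraries and 11165 genes with a mean of at least 50 in each line. The values share libraries and treatment groups, so r is a description. The 8 highest outside the set were FURIN (0.987), FDFT1 (0.980), THRA (0.980), LFNG (0.977), ACAT2 (0.976), GATA2 (0.974), DHCR7 (0.970) and SLC25A23 (0.969). FDFT1, ACAT2 and DHCR7 encode enzymes of cholesterol synthesis, and FURIN a protease that matures proproteins, BMP precursors among them. FURIN averaged 7416 and 6389 in CAOV3 controls and ascites and 4920 and 4076 in TOV21G, with log2 fold changes of -0.21 (adjusted p = 0.053) and -0.27 (adjusted p = 0.0365). FDFT1 fell in both lines, by 0.27 and 0.37 on the log2 scale (adjusted p = 0.0144 and 0.00561). Of the 3 genes averaged, ID3 ranked 2 (r = 0.986), ID2 ranked 11 (r = 0.965) and ID1 ranked 77 (r = 0.888), so the mean followed ID1 least. MSX2 ranked 14 (r = 0.952) and SMAD6 ranked 33 (r = 0.930) in the same order, whereas MSX1 (r = 0.201) and BMP4 (r = -0.07) ranked 5573 and 7871.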

How the data were processed

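The members and gene lists were chosen with earlier results of these data known. The authors deposited, for each of 12 libraries, 1 normalised signal per gene for 19251 Ensembl identifiers. Per the submitters' processing notes, Trim Galore, cutadapt, STAR, HTSeq and DESeq were used. Their versions and settings, the genome build, the strandedness and the library kit are not given in the sources used here. In every library 100% of the deposited values were whole multiples of 1 step (tolerance 0.001 reads), so reads were recovered. The steps' reciprocals equal the size factors that DESeq2's median-of-ratios gives on these reads.

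Symbols came from a gene name table (19087 genes) and GENCODE 29 (136), and 28 genes stayed unnamed. Gene positions are those of GENCODE 29 on GRCh38, which may not be the build used for counting. Promoter windows come from RefSeq and matched all 10 members. Limma 3.58.1 in R 4.3.3 (lmFit, eBayes with a trend) was fitted to log2(value + 1), with all 12 libraries in 1 fit and 1 mean per group. This scale understates changes of low values. Genes at 10 or more in at least 3 libraries were tested (17616), with two-sided p-values adjusted by Benjamini-Hochberg within each contrast and called under 0.05. Counts at an unadjusted p under 0.05 are given without the share of all tested genes and are descriptions. The fit was tried on simulated counts with the same dispersion for every gene, changes only in genes of higher value and no axis within groups. That trial does not bear on low genes or on the spread within TOV21G. EdgeR 4.0.16 and DESeq2 1.42.0 on the recovered reads, which called 511 and 507 genes in CAOV3 and 114 and 150 in TOV21G, were alternatives, with others of scaling, filter, pseudocount and design.

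Named genes are the 10 members, list genes called in an ascites contrast or in the difference between lines, at most 4 high genes a list for baseline levels, and the 8 genes most like ID1, ID2 and ID3. HES1, ATOH8, TGFBI, CDH1, KRT19, EPCAM, PAX8, BMPER, FSTL3, SOSTDC1, FST, TCF4, BMPR1B, ACVRL1 and DLX5 are named beyond this, chosen after their values were seen. Depth limits the precision most for low genes, such as SMAD9. List genes outside the files, such as GREM1 and BMP6, were not analysed here, and 1 gene of the TGF-beta list is not reported here.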

Additional observations from a re-analysis of the deposited data

Results flagged for a closer look

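The response to ascites differed between the lines, by the interaction term of the limma fit, for 3 genes of the lists and for no BMP response gene. PMEPA1, a TGF-beta target, had a difference of -0.73 on the log2 scale (TOV21G minus CAOV3, adjusted p = 0.00664), from 3336 ± 110 to 3553 ± 206 in CAOV3 and from 858 ± 30.9 to 553 ± 60.7 in TOV21G. JUNB had a difference of -0.54 (adjusted p = 0.0269), with a rise in CAOV3 (0.46) and -0.08 in TOV21G. KRT8, an epithelial marker, had a difference of -0.41 (adjusted p = 0.0483). With each of the 12 libraries left out in turn, PMEPA1 was called every time, JUNB in 3 and KRT8 in 2 of the 12, with adjusted p-values up to 0.0939 for JUNB and 0.147 for KRT8.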

How the results depend on the processing

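The number of genes called depended on the method. In CAOV3 305 genes were called, against 585 with TMM scaling, 511 in edgeR, 507 in DESeq2, 1295 with the line fitted alone, and, in alternatives chosen after seeing the data, 961 with KCNQ1OT1 as covariate in TOV21G, 614 without the pair of TOV21G libraries low in it and 583 with the GC and length trend removed. In TOV21G 72 became 114 in edgeR, 150 in DESeq2, 22 with the line alone (0 members) and 122 with the trend removed. For the difference between lines 96 became 171 with TMM, 148 in edgeR, 212 in DESeq2, 158 with the covariate, 178 without the pair of libraries (1 member) and 196 with the trend removed. Leaving out 1 library in turn gave 172 to 344 genes and 1 to 4 members in CAOV3, 24 to 136 genes and 0 to 4 members in TOV21G, and 40 to 146 genes for the difference. The share of calls that were higher moved from 36.7% to 54.5% (trend removed) and 49.8% (covariate) in CAOV3, and from 34.7% to 51.2% (covariate) and 45.5% (line alone) in TOV21G. The cause was not tested.

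The replicate numbers showed no clear pairing of the libraries. Correlations of same-numbered deviations were -0.053, 0.0456 and 0.0196 in CAOV3 and -0.138, -0.426 and 0.0312 in TOV21G. Those of unlike numbers ran from -0.103 to 0.0842 in CAOV3 and from -0.35 to 0.445 in TOV21G. With 3 libraries a group, these values cannot exclude a culture or batch shared by number. With the replicate block, 116 genes and 0 members were called in CAOV3, 13 and 0 in TOV21G and 9 for the difference, and 10 members stayed called at baseline. At an unadjusted p under 0.05 limma with the block had 4 members lower in CAOV3 and 7 in TOV21G. These counts have no share of all tested genes beside them.

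Of the alternatives for single members, baseline and uncalled contrasts included, 853 kept direction and side of the threshold, 19 gained and 46 lost the call. All the losses fell on the ascites calls of ID2, ID3 and MSX2. ID2 lost 1 in CAOV3 and 9 in TOV21G (23 and 15 kept). ID3 lost 6 and 10 (18 and 14 kept), and MSX2 lost 10 and 10 (14 and 14 kept). Another 19 changed sign, all at uncalled values near 0. For the difference between lines these were ID2 at -0.01 without TOV21G control 2 or ascites 2, and ID3 at 0.02 and 0.01 without TOV21G control 1 or ascites 3, 0.07 with the covariate and 0.05 with the trend removed. ID4 was at -0.07 with TMM and without CAOV3 control 1, and -0.17 without CAOV3 ascites 1. MSX1 was at 0.02 with the covariate, and SMAD9 at 0.05, 0.02 and 0.07 without CAOV3 control 1, TOV21G ascites 2 or the pair low in KCNQ1OT1. In CAOV3, ID4 was at 0.01 without ascites 1. In TOV21G, MSX1 was at 0.02, 0.00 and 0.05 without control 1, control 3 or ascites 3, at 0.11 with the covariate and 0.01 with the trend removed. With 1 library left out, these reached 0.08 for ID2 and -0.10 for ID3 (difference), -1.32 (CAOV3) and 1.16 (difference) for ID4, -0.15 for MSX1 (TOV21G) and -0.41 for SMAD9 (difference) at the other end. Every alternative run kept ID2, ID3 and MSX2 negative in both lines.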
